A study of Saccharomyces cerevisiae with 13 samples.

Results

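The kinetochore and spindle checkpoint genes of budding yeast were followed through a synchronised time course. The 37 genes were taken by systematic name and by the complex to which their products belong, out of 6205 gene rows on the arrays. They encode the centromeric histone Cse4 (1 gene), the CBF3 complex (3), Mif2 (1), the Mtw1 complex (3), the Ctf19 complex (9), the Ndc80 complex (4), the Dam1 complex (7), the Ipl1 complex (3) and the spindle checkpoint (6). All 37 have a row. Of these, 36 had values on at least 10 of the 13 arrays and were tested, and 30 had values on all 13.

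The cells are of the W303 background and labelled yox1 yhp1, after a pair of genes for homeodomain repressors. A block in G1 by alpha factor, the mating pheromone, was lifted and cells were released into the rich medium YEPD and sampled every 10 min from 0 to 120 min, a span that the labels call 2 cell cycles. Each time point is a group of 1 array. Its RNA was labelled with Cy5 and hybridised against Cy3-labelled RNA of an unsynchronised wild-type culture grown in YEPD. Values are log10 ratios of sample over that reference, and positive values mean more RNA in the sample. There are no replicates and no dye swap, all arrays follow 1 time course, and a wild-type time course was not analysed here. The sources used here do not say what kind of mutation each gene carries. For YHP1, 13 of 13 arrays gave a value under 0, and the mean was -0.27 ± 0.021 (SE) in log10 units. YOX1 did so on 10 of 13 arrays and stood at 0.122 at 80 min. In the cycle test described below, YOX1 was periodic (2.79-fold from fitted trough to peak, adjusted p = 0.00775, limma). It was called in 27 of 27 alternatives to that test. YHP1 was not called (1.58-fold, adjusted p = 0.106), and passed in 2 of 27 alternatives. The strain's name is therefore used here only as a label.

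A kinetochore is the protein assembly that ties a centromere to the end of a spindle microtubule. In budding yeast each centromere holds a nucleosome with Cse4, onto which inner proteins (CBF3, Mif2 and the Ctf19 complex), a linker (the Mtw1 complex) and the microtubule-binding Ndc80 and Dam1 complexes are built. The Ipl1 kinase releases attachments that are not under tension, and the spindle checkpoint holds back anaphase until every kinetochore is attached. Yeast centromeres replicate early in S phase, and their kinetochores are taken apart and rebuilt at that time.

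Each gene was fitted with a mean, a linear drift and a cosine and sine wave of 62 min, the period that best fitted the mean of a list of G1/S genes. The swing is the fitted peak over the fitted trough, and a gene is called periodic where the limma F test of the wave had an adjusted p below 0.05 over all genes. Errors are those of the scatter of the 13 arrays around the curve. A fitted swing is above 1 even for a gene without a cycle, as its lowest possible value is 1, and the median over all 6151 genes tested was 1.19-fold. The lower end of its interval is therefore not a test.

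Of the 36 tested genes, 12 were periodic (33.3%), against 15.0% of all genes tested. Their swings were modest. The median over the 36 was 1.25-fold, and over the 12 it was 1.52-fold, close to the 1.54-fold median of all 922 periodic genes. MIF2 had the widest swing at 2.07-fold, above 80.0% of periodic genes, and CSE4 the narrowest of those called at 1.26-fold. The calls fell unevenly over the complexes: 3 of 4 in the Ndc80 complex, 3 of 6 tested in the Dam1 complex, 2 of 3 in the Mtw1 complex, 1 of 3 in CBF3, 1 of 6 among the checkpoint genes, and CSE4 and MIF2. None of the 9 listed Ctf19 genes and none of the 3 Ipl1 genes passed. MTW1 and CNN1 were listed apart, among the other kinetochore genes, and are not in these counts. At an unadjusted p below 0.05 the count was 16, with CTF13, DAM1, ASK1 and IPL1 added, against 33.3% of all genes. This difference between complexes was not tested, since genes of a complex are not replicates.

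**Figure D1:**
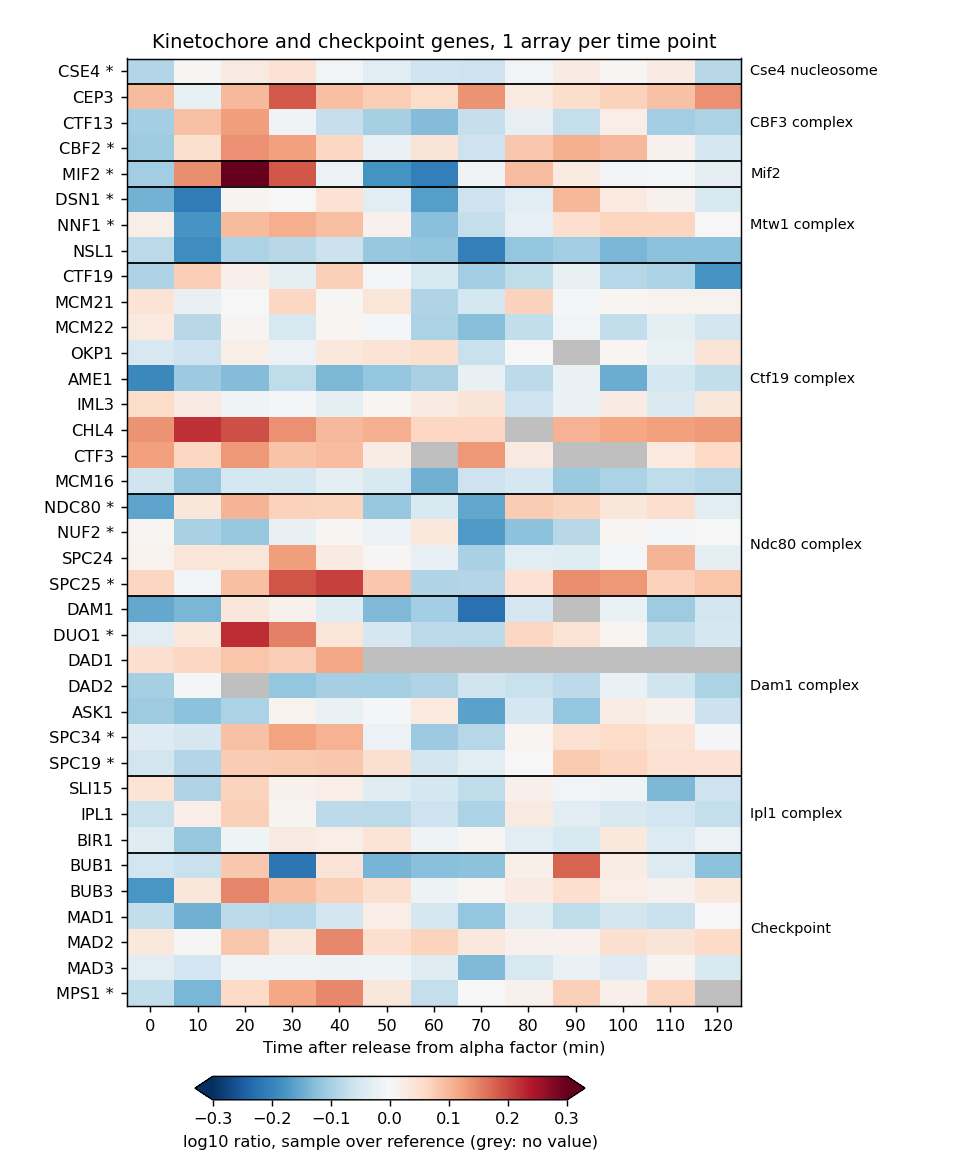
Log10 ratio of sample over reference for the 37 genes (rows, grouped by complex) on each of the 13 arrays (columns, minutes after release). An asterisk marks the 12 periodic genes, grey marks a missing value, and the colour scale ends at 0.3. Among the 10 to 60 min arrays, 27 of the 36 tested genes are highest at 20, 30 or 40 min; CHL4 stays above 0 and AME1, MCM16 and NSL1 stay below 0 throughout.

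The calls also fell close together in time. Of the 12 periodic genes, 11 had a fitted peak between 20.7 and 41.3 min, the middle part when the 62 min cycle is cut into 3 equal parts, against 30.3% of all periodic genes. The remaining gene was NUF2. None peaked before 20.7 min, where 33.4% of all periodic genes did. For orientation, the mean of 31 G1/S genes peaked at 19.1 ± 1.11 min (SE), that of 8 core histone genes at 29.0 ± 1.01 min and that of 13 genes of the mitotic CLB2 cluster at 47.6 ± 2.16 min. The same window held the fitted peaks of 12 of the 24 genes that were not called, and of 25.7% of all genes tested, called or not. Peaks of the uncalled members had SEs from 2.79 min (ASK1) to 13.6 min (CTF3), so many of them are poorly determined.

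The highest and lowest arrays were also read without a curve, from the same values to which the curves were fitted. Among the arrays of 10 to 60 min, 27 of the 36 tested genes (75.0%) had their highest value at 20, 30 or 40 min, against 41.0% of all genes tested. Among the arrays of 70 to 120 min, 23 of 36 (63.9%) had their lowest value at 70 min, against 22.5% of all genes. At 10 min, the lowest value of the first cycle was found for 14 genes (38.9%), against 23.6% of all genes. These are shares of arrays that all genes have in common, given without a test, and are not separate support for the fitted peaks. The 10 and 70 min arrays are the first of their spans, so lows there depend in part on where the spans were cut.

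**Figure D2:**
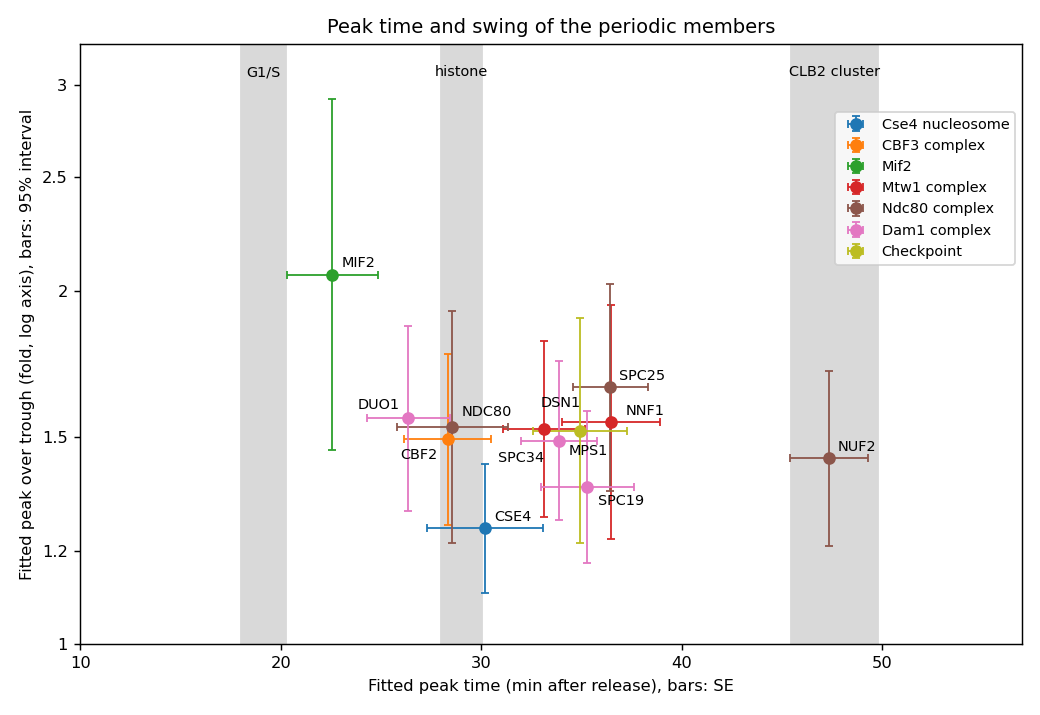
Fitted peak time (x axis, minutes after release, bars show SE) and fitted peak over trough (y axis, fold on a log axis, bars show 95% intervals) of the 12 periodic genes, coloured by complex. Grey bands mark the peak of the mean of the G1/S, histone and CLB2 lists with its SE. MIF2 lies nearest to the G1/S band, NUF2 in the CLB2 band, and the other 10 between 26.4 and 36.5 min.

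Beginning at the centromere, CSE4 (YKL049C), the gene of the centromeric histone H3 variant, had log10 ratios of -0.087, 0.003, 0.028, 0.043, -0.009, -0.031, -0.059, -0.061, -0.008, 0.025, 0.003, 0.024 and -0.084 from 0 to 120 min. It was highest at 30 min in the first cycle and at 90 min in the second, and its values spanned 0.102 log10 units before 70 min (0 min left out) and 0.109 from then on. The fitted swing was 1.26-fold (95% interval 1.11 to 1.42) and the fitted peak lay at 30.2 ± 2.87 min (SE), and the adjusted p was 0.0458. That call is fragile: it was lost without any of the 0, 20, 30, 40, 50, 60, 70, 80, 90, 100 or 120 min arrays (adjusted p from 0.0563 to 0.109).

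MIF2 (YKL089W), which encodes the yeast counterpart of CENP-C, had log10 ratios of -0.105, 0.140, 0.349, 0.186, -0.017, -0.179, -0.204, -0.010, 0.092, 0.026, -0.008, -0.007 and -0.029. It rose to a high at 20 min, fell below every other time point by 60 min and rose to a lower high at 80 min. Its swing was 2.07-fold (1.46 to 2.92) and the fitted peak lay at 22.6 ± 2.25 min (SE, adjusted p = 0.0207). Its values spanned 0.554 log10 units from 10 to 60 min but 0.121 from 70 to 120 min. The scatter of MIF2 around the curve was wider than that of 95.2% of genes, and its 20 min value lay 0.159 above the curve. Leaving out the 20, 30 or 50 min array ended the call (adjusted p between 0.0504 and 0.0694), with swings from 1.80-fold to 2.03-fold.

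CBF3 binds the centromere DNA directly. CBF2 (YGR140W), its large DNA-binding subunit, had log10 ratios of -0.106, 0.048, 0.137, 0.123, 0.061, -0.020, 0.039, -0.061, 0.081, 0.107, 0.097, 0.012 and -0.052. Both cycles rose to similar highs, at 20 min and at 90 min. The swing was 1.496-fold (1.26 to 1.77), the peak at 28.3 ± 2.16 min (SE), and the adjusted p was 0.0120. The F-box subunit gene CTF13 (YMR094W) also stood high at 20 min (0.125) and low at 60 min (-0.130), but its second cycle was irregular and the test was not passed (1.37-fold, adjusted p = 0.112). CEP3 (YMR168C), for the zinc cluster subunit, had a swing estimated at 1.09-fold (adjusted p = 0.829) and was above the reference on 12 of 13 arrays.

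The Mtw1 complex joins the inner to the outer kinetochore. DSN1 (YIR010W) had log10 ratios of -0.142, -0.210, 0.009, -0.001, 0.044, -0.032, -0.166, -0.061, -0.031, 0.10, 0.030, 0.013 and -0.045. It was low at 0, 10 and 60 min and high around 40 and 90 min. The swing was 1.53-fold (1.28 to 1.81) and the fitted peak lay at 33.1 ± 2.04 min (SE, adjusted p = 0.0106), and the call held in each of the 27 alternatives run. NNF1 (YJR112W) ran from -0.176 at 10 min to 0.110 at 30 min, and from -0.072 at 70 min to 0.065 at 110 min. It swung 1.55-fold (1.23 to 1.95) and peaked at 36.5 ± 2.44 min (SE, adjusted p = 0.0351), and lost its call when the 30, 40, 50, 60, 70 or 90 min array was left out (adjusted p between 0.0533 and 0.0931). NSL1 (YPL233W) was lowest on the same arrays of 10 and 70 min (-0.186 and -0.204), but otherwise stayed between -0.137 and -0.064, and its swing of 1.18-fold did not pass (adjusted p = 0.265). All 3 listed genes had their lowest value of 10 to 60 min at 10 min and of 70 to 120 min at 70 min. DSN1 and NNF1 were, however, lower at 60 min (-0.166 and -0.125) than at 70 min. MTW1 itself, listed apart, did not share these lows. It stood at 0.015 at 10 min and was lowest at 40 min (-0.157) and at 120 min (-0.160) in the same spans. The fitted peaks of DSN1 and NNF1 differed by 3.37 min, with a 95% interval of -3.46 to 10.2 min, so their order was not resolved.

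**Figure D3:**
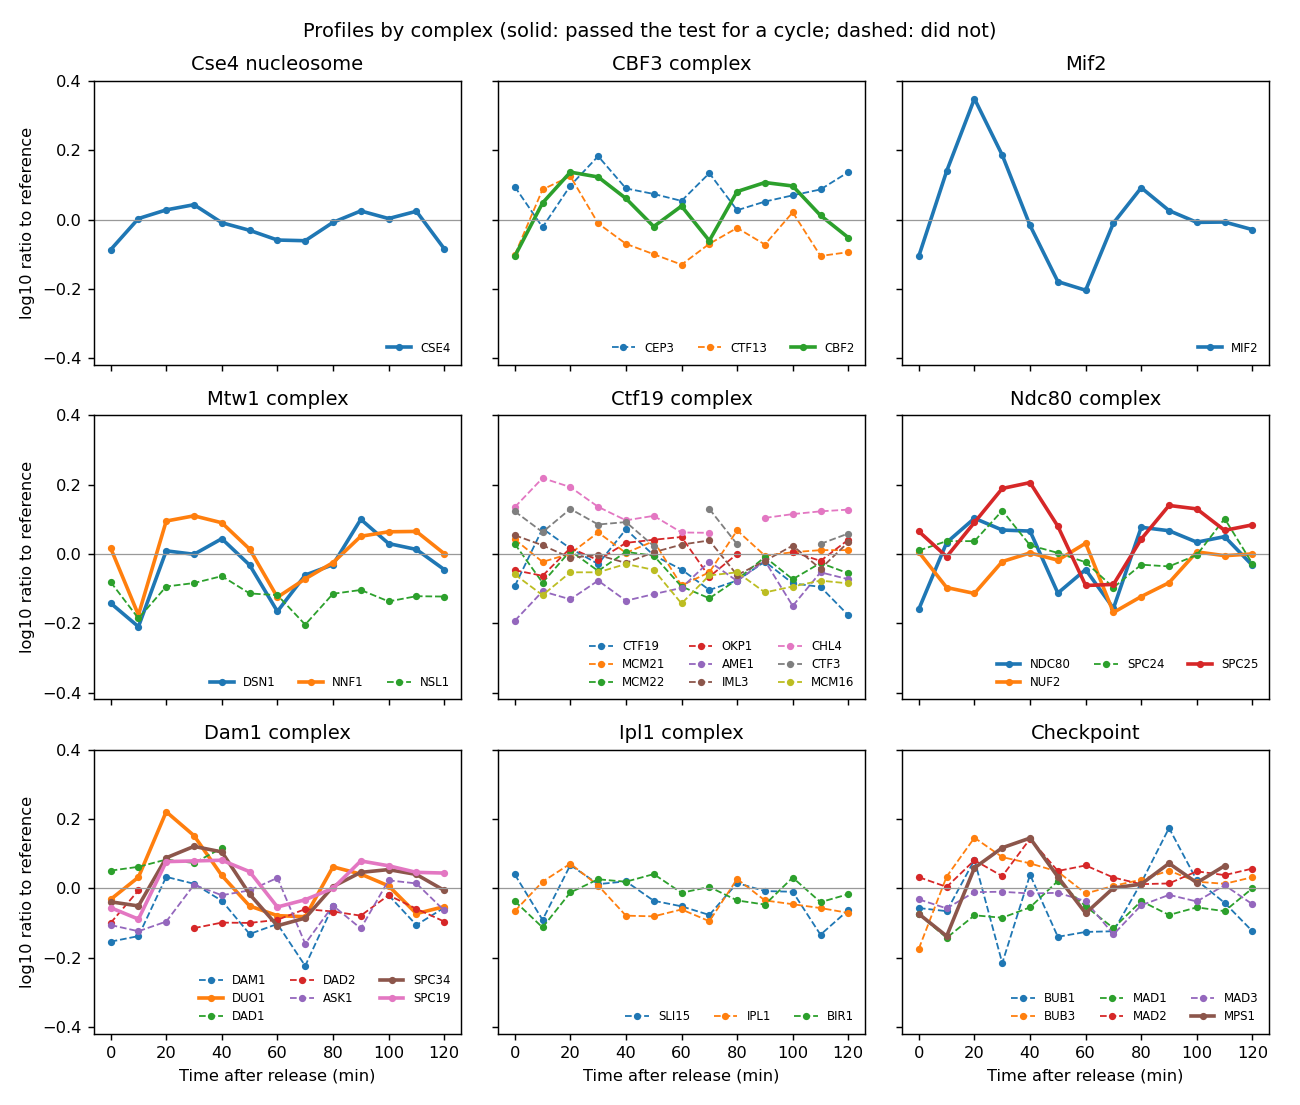
Log10 ratio of sample over reference (y axis) at each time after release (x axis, minutes), 1 panel per complex and 1 line per gene. Solid lines are periodic genes and dashed lines are genes that did not pass. The 3 Mtw1 lines are low together at 10 min, NDC80 is high and NUF2 low at 20 and 80 min, and no Ctf19 line is solid. MTW1 and CNN1, listed apart, are not drawn.

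The Ndc80 complex is a rod that grips the microtubule with its Ndc80 and Nuf2 end and holds the kinetochore with its Spc24 and Spc25 end. Its 4 genes did not share a profile, although each had its lowest value of 70 to 120 min at 70 min, as did 22.5% of all genes. NDC80 (YIL144W) had log10 ratios of -0.159, 0.033, 0.103, 0.069, 0.066, -0.113, -0.045, -0.157, 0.077, 0.067, 0.034, 0.050 and -0.033, with highs at 20 and 80 min. NUF2 (YOL069W) had 0.005, -0.097, -0.114, -0.022, 0.003, -0.018, 0.031, -0.169, -0.123, -0.083, 0.006, -0.005 and 0.000. NUF2 was thus low at 20 and at 80 min, when NDC80 was high, and reached its highs at 60 and 100 min. SPC25 (YER018C) had log10 ratios of 0.065, -0.008, 0.091, 0.189, 0.206, 0.080, -0.091, -0.088, 0.043, 0.140, 0.130, 0.068 and 0.084, with highs at 40 and 90 min.

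Fitted peaks stood at 28.6 ± 2.78 min (SE) for NDC80, 36.4 ± 1.87 min for SPC25 and 47.3 ± 1.95 min for NUF2. NUF2 peaked 18.8 min after NDC80 (95% interval 11.5 to 26.1) and 10.9 min after SPC25 (interval of SPC25 minus NUF2 -16.7 to -5.10). SPC25 peaked 7.88 min after NDC80 (0.674 to 15.1). These intervals treat the errors of a pair of genes as independent, although all genes share the arrays, and no p was computed for them. Swings were 1.53-fold for NDC80 (1.22 to 1.92, adjusted p = 0.0388), 1.44-fold for NUF2 (1.21 to 1.71, adjusted p = 0.0203) and 1.66-fold for SPC25 (1.35 to 2.03, adjusted p = 0.00977). The calls of SPC25 (27 of 27 alternatives) and NUF2 (26 of 27) were stable. That of NDC80 held in 13 of 27 and was lost when the 0, 20, 30, 40, 50, 60, 80, 90 or 100 min array was left out (adjusted p between 0.0501 and 0.0951). SPC24 (YMR117C) had its highs at 30 min (0.125) and 110 min (0.102), and its swing of 1.25-fold was not called (adjusted p = 0.247).

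The Dam1 complex, also called DASH, forms rings and patches on microtubules and couples kinetochores to their shrinking ends. DUO1 (YGL061C) had log10 ratios of -0.032, 0.032, 0.221, 0.152, 0.037, -0.051, -0.079, -0.082, 0.062, 0.041, 0.007, -0.073 and -0.053. A sharp rise to 20 min was followed by a lower one at 80 min. SPC34 (YKR037C) had -0.039, -0.051, 0.088, 0.121, 0.105, -0.017, -0.108, -0.086, 0.005, 0.046, 0.054, 0.040 and -0.006. SPC19 (YDR201W) stayed between 0.077 and 0.081 from 20 to 40 min, fell to -0.054 at 60 min and stood at 0.079 at 90 min. The 3 genes therefore rose together by 20 min, but SPC34 and SPC19 kept their level to 40 min while DUO1 had fallen to 0.037.

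Swings were 1.56-fold for DUO1 (1.30 to 1.87, adjusted p = 0.0106), 1.49-fold for SPC34 (1.28 to 1.74, adjusted p = 0.00816) and 1.36-fold for SPC19 (1.17 to 1.58, adjusted p = 0.0233). DUO1 peaked at 26.4 ± 2.08 min (SE), SPC34 at 33.9 ± 1.92 min and SPC19 at 35.3 ± 2.30 min. SPC34 followed DUO1 by 7.51 min (95% interval 1.43 to 13.6) and SPC19 followed it by 8.93 min (2.26 to 15.6), while SPC34 and SPC19 differed by 1.42 min (-5.02 to 7.86). DUO1 was called in 27 of 27 alternatives and SPC34 in 26. SPC19 lost its call when the 30, 40 or 60 min array was left out (adjusted p between 0.0507 and 0.0702).

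The gene that names the complex, DAM1 (YGR113W), fell just short with a 1.44-fold swing (1.15 to 1.79, adjusted p = 0.0660, 12 arrays). Its values were -0.138 at 10 min and 0.033 at 20 min, then -0.224 at 70 min and -0.050 at 80 min. DAM1 passed when the 70 min array was left out (0.0402) and when the 120 min array was (0.0233). ASK1 (YKL052C) followed a later course, with its highs at 60 min (0.030) and 100 min (0.023) and a fitted peak at 43.4 ± 2.79 min (SE), and was not called (1.35-fold, adjusted p = 0.0969). DAD2 (YKR083C) lay below the reference on all 12 arrays that measured it and had a swing estimated at 1.08-fold (adjusted p = 0.736). DAD1 (YDR016C) had values only at 0, 10, 20, 30 and 40 min, namely 0.051, 0.062, 0.083, 0.073 and 0.116, and was not tested.

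None of the 9 listed genes of the Ctf19 complex, the inner layer that corresponds to much of the human CCAN, passed the test for a cycle. CNN1, the CENP-T counterpart, was listed apart and did pass, narrowly (1.36-fold, adjusted p = 0.0486). NKP1 and NKP2, also listed apart, did not (1.07-fold, adjusted p = 0.674, and 1.26-fold, adjusted p = 0.155). The 9 listed genes had fitted swings from 1.07-fold to 1.21-fold, with a median of 1.12-fold that is below the 1.19-fold median of all genes. Adjusted p ran from 0.291 for CTF19 (YPL018W) to 0.831 for CTF3 (YLR381W), and no member was called in any alternative run. The upper 95% limits of the swings reached at most 1.47-fold. The test can miss such small swings. On simulated arrays it recovered 7.46% of genes with a 1.26-fold and 61.2% with a 1.58-fold swing. Far fewer genes were changed there than the 922 called on the real arrays, which makes the adjustment stricter and lowers the recovery. A cycle of the size seen for CSE4 could still be missed, but how often on the real arrays was not measured.

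Mean levels of the Ctf19 genes lay on both sides of the reference. By adjusted p alone (limma), 2 of the 9 were higher and 4 lower, against 33.6% and 32.0% of all genes. A spread of levels was not particular to this complex, as means ran from -0.118 to 0.012 in the Mtw1 complex and from -0.040 to 0.083 in CBF3. CHL4 (YDR254W), whose protein forms a pair with that of IML3, lay above the reference on all 12 arrays with a value, from 0.061 at 70 min to 0.219 at 10 min. CTF3 was above it on all 10 arrays with a value. AME1 (YBR211C), 1 of the 2 essential subunits of the complex, lay below the reference on 13 of 13 arrays, from -0.193 at 0 min to -0.020 at 90 min, and so did MCM16 (YPR046W), from -0.143 to -0.029. OKP1 (YGR179C), the other essential subunit, IML3 (YBR107C) and MCM21 (YDR318W) stayed around 0, with mean log10 ratios of -0.0018, 0.0020 and 0.0063. MCM22 (YJR135C) and CTF19 had means of -0.042 each.

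The Ipl1 complex carries the Aurora B kinase Ipl1 with its activator Sli15 and the survivin relative Bir1. IPL1 (YPL209C) had log10 ratios of -0.066, 0.019, 0.071, 0.008, -0.079, -0.081, -0.061, -0.095, 0.027, -0.035, -0.046, -0.057 and -0.071. Single highs stood at 20 and 80 min. The fitted swing was 1.26-fold (1.08 to 1.48) and the fitted peak lay at 21.3 ± 3.09 min (SE), and the adjusted p of 0.0901 did not pass. It passed without the 70 min array (adjusted p = 0.0310). SLI15 (YBR156C) also had its highs at 20 and 80 min (0.067 and 0.015) and was not called (1.19-fold, adjusted p = 0.308). BIR1 (YJR089W) had its highs at 50 and 100 min (0.041 and 0.031, 1.17-fold, adjusted p = 0.336).

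Among the checkpoint genes, only MPS1 (YDL028C), for the kinase that starts the signal at unattached kinetochores, was called. Its log10 ratios were -0.074, -0.138, 0.059, 0.117, 0.145, 0.033, -0.072, 0.001, 0.012, 0.072, 0.016 and 0.065 from 0 to 110 min, with no value at 120 min. The first cycle rose to 40 min over a range of 0.283 log10 units, and the second spanned 0.071. The swing was 1.52-fold (1.22 to 1.90) and the fitted peak lay at 34.9 ± 2.33 min (SE, adjusted p = 0.0375). The call was lost when the 0, 20, 30, 40, 50, 60 or 90 min array was left out (adjusted p between 0.0531 and 0.129).

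BUB1 (YGR188C), the gene of a checkpoint kinase that also marks pericentromeric histones, had log10 ratios of -0.057, -0.066, 0.082, -0.216, 0.039, -0.140, -0.126, -0.124, 0.016, 0.174, 0.023, -0.042 and -0.124. The 30 min value lies far below those of 20 and 40 min, and its residual from the fitted curve was -0.233. With that value the swing was 1.42-fold (1.02 to 1.99) and did not pass (adjusted p = 0.254). Its scatter around the curve was wider than that of 95.5% of genes. Without the 30 min array BUB1 swung 1.78-fold (1.46 to 2.16) and peaked at 28.8 ± 1.60 min (SE, adjusted p = 0.00744, 12 arrays). Whether the 30 min value is a measurement fault was not tested, as each time has a single array.

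The other checkpoint genes were not called, in a test that recovered few small swings on simulated arrays. MAD1 (YGL086W) and MAD2 (YJL030W), whose products form the core that makes the inhibitor, had fitted swings of 1.15-fold each (adjusted p = 0.416 and 0.391). MAD3 (YJL013C), part of the inhibitor that holds Cdc20, had 1.18-fold (adjusted p = 0.198) and stayed between -0.058 and 0.009 on every array except that of 70 min, where it was -0.133. BUB3 (YOR026W), the partner of Bub1 and Mad3, ran from -0.174 at 0 min to 0.146 at 20 min and then stayed between -0.015 and 0.090. Its swing of 1.32-fold was not called (adjusted p = 0.160). Upper 95% limits of the swing were 1.36-fold for MAD1 and MAD3, 1.35-fold for MAD2 and 1.65-fold for BUB3.

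**Figure D4:**
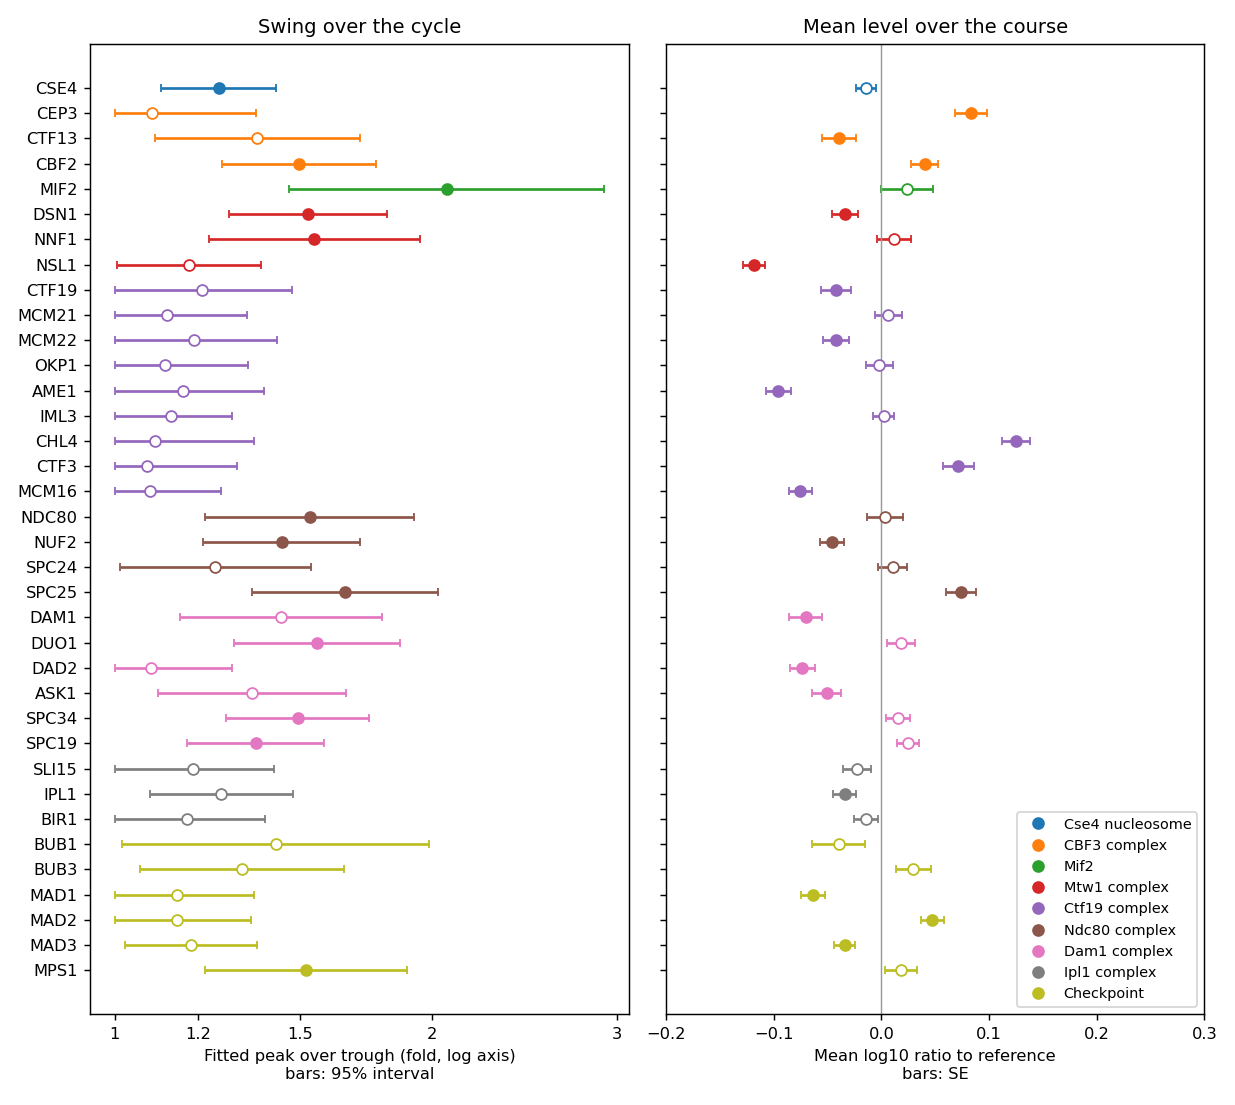
Left, fitted peak over trough (fold on a log axis) of the 36 tested genes with 95% intervals; filled points are periodic. Right, mean log10 ratio to the reference over the course with SE; filled points have an adjusted p below 0.05. None of the Ctf19 swings is filled, while their mean levels run from -0.096 for AME1 to 0.125 for CHL4, the highest of the 36. The lowest mean is that of NSL1.

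Mean levels over the course were set against the unsynchronised wild-type culture. No member differed by at least 1.5-fold with an adjusted p below 0.05, against 6.91% of all genes (limma). The widest difference was that of CHL4, 1.33-fold above the reference (mean log10 ratio 0.125 ± 0.013, SE), followed by NSL1, 1.31-fold below it on 13 of 13 arrays (-0.118 ± 0.011). By adjusted p alone, 6 members were higher, against 33.6% of all genes, and 14 were lower, against 32.0% of all genes. The higher ones were CHL4, CEP3 (0.083), SPC25 (0.074), CTF3 (0.072), MAD2 (0.047) and CBF2 (0.040). Among the lower ones were NSL1, AME1 (-0.096), MCM16 (-0.075), DAD2 (-0.073), DAM1 (-0.070) and MAD1 (-0.063). These tests measure the scatter of the arrays only. A dye effect or an error of the reference RNA would shift a gene alike on every array, and its part in these small differences was not tested. The strain and the synchrony also differ between sample and reference and cannot be told apart.

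The arrest array was set against the curve through the released arrays. No member passed at 0 min, against 1.70% of the 6109 genes tested (limma), and 4 of the 36 had an unadjusted p below 0.05, against 11.6% of all genes. Fitted differences ran from -0.183 for BUB3 to 0.122 log10 units for SLI15. BUB3 came nearest (adjusted p = 0.0609). The arrest array of BUB3 did pass when a linear drift was fitted (-0.223, adjusted p = 0.0284) or the 20 min array was left out (adjusted p = 0.0264).

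Other kinetochore genes outside the 37 were read beside these. Of 19 listed, 15 were tested and 5 of the 15 were periodic, against 15.0% of all genes. STU2, for a microtubule polymerase, swung 2.10-fold and peaked at 31.6 ± 1.86 min (SE, adjusted p = 0.00623), and SLK19, for a protein of kinetochores and the spindle midzone, 1.88-fold and peaked at 24.8 ± 1.89 min (adjusted p = 0.00771). SGO1, the tension sensor shugoshin, swung 1.37-fold (33.6 ± 2.52 min, adjusted p = 0.0302), SCM3, the chaperone that loads Cse4, 1.37-fold (17.4 ± 1.76 min, adjusted p = 0.0120), and CNN1, the CENP-T counterpart, 1.36-fold (19.0 ± 2.47 min, adjusted p = 0.0486). The fitted peak of SCM3 preceded that of CSE4, whose own call is fragile. SGO1 lost its call when the 0, 30, 40 or 100 min array was left out (adjusted p between 0.0505 and 0.0831), and CNN1 kept it only without the 110 min array among the 13 left out in turn. MTW1 itself was not called (1.27-fold, adjusted p = 0.410), except without the 110 min array (adjusted p = 0.0313).

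Downstream of the checkpoint, 3 of 10 listed genes were periodic, against 15.0% of all genes. PDS1, for the securin that guards separase, swung 1.89-fold and peaked at 27.1 ± 1.62 min (SE, adjusted p = 0.00251), and ESP1, for separase, 1.82-fold at 36.2 ± 1.63 min (adjusted p = 0.00473). CDC20, for the activator that the checkpoint inhibits, swung 2.26-fold and peaked at 49.6 ± 1.42 min (adjusted p = 0.00317). The fitted peak of MPS1 lies near that of ESP1 and before that of CDC20. Of the 7 listed subunits of the anaphase-promoting complex none was called, and APC1 came nearest (1.39-fold, adjusted p = 0.0525). APC1 was called in 9 of 27 alternatives, namely without the 0 min array (0.00983), without the 110 min array (0.0388) and in 7 of the 14 other settings (adjusted p between 0.00547 and 0.0449). APC11 was called in 1, without the 70 min array (adjusted p = 0.0438), and the other 5 subunits in none.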

How the data were processed

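The deposited table holds 1 value per gene and time point, a log10 ratio of Cy5 over Cy3 as made by the authors. Base 10 is inferred from the values, of which 18 sit exactly at a limit of 2 in either direction while the largest other value is 1.61. The direction follows the dyes, per the labels. The sources used here do not give the authors' background correction or normalisation, and spot brightness is unknown. Deposited array medians were between 2.9e-05 and 0.0079.

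The 12 control rows were left out, values at that limit were set to missing (no member has one), each array was centred on its median, and genes with fewer than 10 values were dropped, which left 6151 of 6205. Arrays had 6065 to 6176 gene values, and their number limits the precision. Symbols came from RefSeq assembly R64 (5703 of 6205 identifiers matched, all 37 members among them). Fits across the whole table used limma 3.58.1 in R 4.3.3, with Benjamini-Hochberg adjustment over all genes and a threshold of 0.05. The period was searched from 50 to 80 min in steps of 1 min. The arrest fit had a term for 0 min and no drift. SEs of peak and swing follow from the coefficients' covariance. P-values measure the scatter of arrays of 1 time course.

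On simulated data with the real scatter, the cycle test over 6151 genes found 90.9% of swings of 2.51-fold and made 4 false calls. Each simulated size was given to 66 or 67 genes, in all far fewer than the 922 called periodic on the real arrays. With fewer changed genes the adjustment is stricter, so the recovery of cycles is understated. The mean test recovered 86.6% of 1.58-fold differences with 0 false calls, and the arrest test on 6109 genes 49.3% of 1.58-fold differences with 5. The 27 alternatives to the cycle test were 13 fits that leave out 1 array each and 14 other settings, 2 of them chosen after seeing the data. The members and the gene lists were chosen with earlier results of these data known. Named genes are all members, and those called from the lists of other kinetochore genes and of checkpoint targets. From these lists NKP1, NKP2 and a few that came near or name a complex were added after their values were seen. The counts of highest and lowest arrays, the parts of the cycle, the pairs of peak times, the neighbouring genes and the rule on values at the limit were also chosen after the data were seen. Promoter and protein sequences were not used here.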

Additional observations from a re-analysis of the deposited data

How the results depend on the processing

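The count of 12 periodic members was 4 with a period 5 min shorter, where 7.40% of all genes were called. It ranged from 7 to 12 when single arrays were left out, with 7 without the 30, 40, 50 or 60 min array. The share of all genes fell with it, to 9.66%, 8.52%, 7.90% and 11.5%, and to 9.36% without the 20 min array. Array weights gave 13 members and 24.9% of all genes. In the other settings run, the count lay between 8 and 12. It was 10 with a second harmonic (10.9% of all genes) or a period of 60 min (12.8%). Without the 0 and 10 min arrays it was 8, while the share of all genes stayed at 14.7%. Leaving out only the 0 min array gave 9 members and 14.2% of all genes. DSN1, SPC25 and DUO1 were called in all 27 alternatives, and 21 of the 24 uncalled members in none. The exceptions are DAM1 (in 5 of 26 alternatives), BUB1 (without the 30 min array) and IPL1 (without the 70 min array or with array weights). CBF2, NUF2 and SPC34 were not called when the period was 5 min shorter (adjusted p of 0.0598, 0.0593 and 0.0508). The calls held in 10 of 27 alternatives for CSE4, 13 of 27 for NDC80, 14 of 26 for MPS1, 20 of 27 for NNF1, 21 of 27 for SPC19 and 24 of 27 for MIF2. Beside the left-out arrays named with each gene, CSE4 lost its call in 6 other settings (adjusted p 0.0518 to 0.171), NDC80 in 5 (0.0614 to 0.135), MPS1 in 5 (0.0541 to 0.108), SPC19 in 3 (0.0762 to 0.0816), NNF1 in 1 (0.0981) and MIF2 in 0. For the mean level, no setting with the 1.5-fold minimum called a member, and adjusted p alone called 20. The arrest comparison called 1 member, BUB3, with a linear drift, and between 0 and 1 with single arrays left out. No paired analysis was possible because each time point is a single array and no comparison of replicated groups exists. Swings below about 1.5-fold are near the limit of what 13 arrays resolve.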

Other observations

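Genes that lie next to a member and are read away from it were looked at beside the members. In the gene order of RefSeq R64, 18 tested members have such a tested neighbour. Of these neighbours 1 was periodic (5.56%, against 15.0% of all genes), namely RKM1 beside IPL1, which swung 1.67-fold and peaked at 22.9 min (adjusted p = 0.00777, limma), while IPL1 itself was not called. Of the 12 periodic members 7 have such a neighbour (CBF2, NNF1, NDC80, NUF2, SPC25, DUO1 and SPC19), and 0 of these 7 neighbours were periodic. The neighbour of NUF2, NBA1, had a fitted swing of 1.74-fold without passing (adjusted p = 0.123). This comparison was made after the data were seen and was not tested.

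The second cycle had a smaller range of values than the first for 8 of the 12 periodic members (66.7%), against 85.8% of all periodic genes. CSE4, CBF2, NDC80 and NUF2 are the exceptions, with ranges of 0.102 and 0.109, 0.157 and 0.168, 0.216 and 0.234, and 0.145 and 0.175 log10 units at 10 to 60 and 70 to 120 min. These are values without a test.

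STU2 stood out at the arrest. Its 0 min value differed from the curve through the released arrays by -0.285 ± 0.046 log10 units (SE, adjusted p = 0.00476, limma), whereas no member passed that test.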
